A study of Mus musculus with 4 samples.

Results

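A set of 41 genes that serve the copying of DNA was read in B cells of the cervical lymph nodes of mice from 2 strains. Their products license origins, open the helix, carry the fork, process or package the new DNA, make deoxynucleotides or control the passage from G1 to S phase. The set is a chosen part of the genes with these roles. The members were chosen by their role, with earlier results of these data known, and all 41 were found among the 23418 gene symbols of the count table. The control strain was BL/10 (2 libraries) and the compared strain was NOD.B10 (2 libraries), a line that carries the histocompatibility region of a C57BL/10 type on the NOD background and develops features of Sjögren's disease. Total RNA of purified cervical lymph node B cells was sequenced, and no treatment is named for either strain. Age, sex, the sorting markers and the number of animals behind a library are not given in the sources used here, so the p-values measure the spread between these libraries, which may be technical. The strains differ at many loci, and a difference between them is a difference between strains.

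In G1 the origin recognition complex, with CDC6 and CDT1, loads the ring of MCM2 to MCM7 onto origins. CDC45 and GINS then join that ring to make the active helicase, the polymerase alpha-primase complex lays down primers, and the sliding clamp PCNA, put in place by replication factor C (RFC), holds polymerases delta and epsilon on the template. Most of these genes are transcribed under E2F factors near the start of S phase. Most lymph node B cells rest, and B cells divide chiefly after activation and in germinal centres.

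Among the 41 genes, 9 fell in NOD.B10 (Rrm2, Pold1, Pcna, Rfc3, Mcm10, E2f8, E2f2, Mcm7 and Exo1), 1 rose (Tk1), and 31 did not pass the test. The test was edgeR's quasi-likelihood F-test with Benjamini-Hochberg adjustment over 13075 genes, and a gene is called at an adjusted p under 0.05. Over all tested genes, 15.2% were called either way, 8.63% lower and 6.55% higher, against 22% lower and 2.44% higher among the members. The median log2 fold change (NOD.B10 over BL/10) of the members was -0.22, with a range from -2.56 to 0.91, while the median of all tested genes was -0.00. Both NOD.B10 libraries lay below both BL/10 libraries for 23 members and above them for 7, and among all tested genes these arrangements held for 27.7% and 27.9%. Summed over the 41 genes, the level was 1421 and 1481 CPM (counts scaled to a common library size with TMM factors) in BL/10 and 1255 and 1240 CPM in NOD.B10, a difference of -14.0%. In bulk RNA, a different mix of cells, such as fewer cycling cells, and less RNA of these genes per cell cannot be told apart.

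The libraries held 29372751 and 26150794 counts in BL/10 and 19328803 and 25375678 in NOD.B10. B cell markers were high in all 4, with summed levels from 9373 to 10953 CPM, 1 of 10 called higher (Fcer2a) and none lower. Summed markers of 7 other kinds of cell had a higher mean in BL/10. The 16 T cell markers summed to 510 and 606 CPM in BL/10 and to 57.8 and 59.0 CPM in NOD.B10, and 16 of 16 were called lower, with Bcl11b, Tcf7 and Cd28 at the smallest p. Erythroid markers (3 of 5 called lower) summed to 241 and 476 CPM against 10.5 and 5.56 CPM. Alas2, which made up most of the BL/10 sums, was 1 of these calls (adjusted p = 0.0480). Its call did not hold without the filter on low counts (adjusted p = 0.102) or with a replicate block (adjusted p = 0.200). NK cell markers (6 of 6 called lower) summed to 15.2 and 27.2 CPM against 2.85 and 3.92 CPM. Precursor markers (2 of 4, Kit and Il2ra) stood at 112 and 18.8 CPM against 3.11 and 3.33 CPM. In BL/10, Il2ra was at 10.8 and 14.3 CPM and Kit at 1.72 and 1.67 CPM. Most of the sum of BL/10 replicate 1 thus came from other genes of the list, none of which was called. Neutrophil and mast cell markers (4 of 5) stood at 5.23 and 8.56 CPM against 0.259 and 0.548 CPM. Macrophage and dendritic cell markers (4 of 11) ranged from 58.3 to 71.6 CPM against 36.9 to 52.9 CPM, and plasma cell markers (2 of 8, Prdm1 and Tnfrsf17) from 680 to 1316 CPM against 620 to 698 CPM. The plasma cell sums overlapped between the strains, and without BL/10 replicate 1, 0 plasma cell markers were called lower. Kit, Klrk1, Klrd1, S100a8, Mcpt4 and Slc4a1 were among the markers with 0 reads in both NOD.B10 libraries. These lists had a lower mean in NOD.B10, as had the replication genes that fell, and their part in those results was not tested. Other lists summed higher in NOD.B10. Germinal centre B cell markers had no call in either direction among 9. Their sums were 149 and 195 CPM in BL/10 and 224 and 212 CPM in NOD.B10. Bcl6, which was not called, made up most of each sum, at 125 and 160 CPM against 187 and 181 CPM. Of the 9 genes, 6 had a positive and 3 a negative log2 fold change, with a median of 0.097. Stromal and endothelial markers summed to 368 and 359 CPM in BL/10 and to 417 and 427 CPM in NOD.B10, with none of 3 tested genes called lower and 1 called higher (Pdgfrb, adjusted p = 0.0103). That call did not hold without BL/10 replicate 1 (adjusted p = 0.0976) or NOD.B10 replicate 1 (adjusted p = 0.0621).

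**Figure D1:**
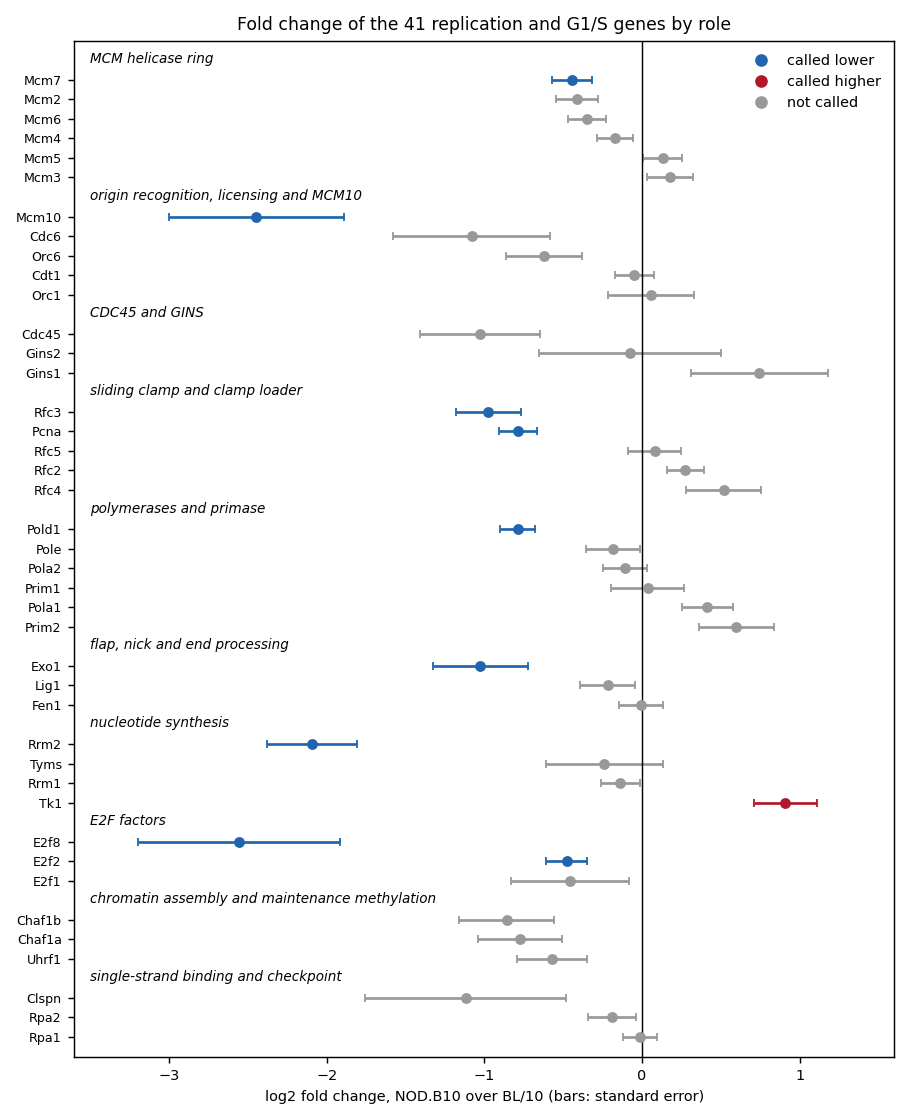
Log2 fold change (NOD.B10 over BL/10, horizontal axis) of each of the 41 genes, grouped by role, with bars for the standard error and colours for the call. The 9 genes that fell are spread over 7 of the 10 roles, and Tk1 (0.91) is the gene that rose.

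The promoters of the members differ in the short words they hold. RefSeq windows (build GRCm38.p6) from 250 bases before to 50 bases after the start were matched for 34 of the 41 genes. Some genes have several starts: of the 40 windows of these members, 19 begin at a start inside the annotated gene span, so that some of the bases before it belong to the gene. Words of the E2F type (TTTCCCGC, TTTGGCGC, TTTCGCGC and TTTGCCGC, on either strand) were present for 14 of the 34 members, or 41.2%, against 4.63% of 9548 tested genes and 2.60% of all 27025 genes with a window. The CCAAT box (CCAAT on either strand) was present for 22 members, or 64.7%, against 42.8% of tested genes. The word TTTGAA, the core of the cell cycle homology region of late cell cycle genes, was present for 5 members, or 14.7%, against 14.4% of tested genes. The words TTTGGCGC and TTTCGCGC overlap each other where they lie head to head, as they do before Mcm5 and Mcm6, and each is then counted. A match is a description of letters and not a bound site.

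Stretches before the start are printed for 5 members, with E2F-type words and CCAAT boxes in capitals. They set promoters of genes that fell beside those of related genes that were not called. These are examples and do not stand for the list, whose shares follow the sequences. All 5 lie outside the span of their gene and outside exons of GENCODE M21, for which 13 bases next to the start of Rrm2 were left off. Rrm2 (chr12:24708084-24708240, plus strand) fell and holds 1 CCAAT box, and Rrm1 (chr7:102441525-102441694, plus strand), the other subunit of the same enzyme, was not called and holds 2. Mcm10 (chr2:5012792-5012961, minus strand) fell and holds 2 CCAAT boxes but none of the searched E2F-type words. Mcm6 (chr1:128359706-128359875, minus strand) and Mcm3 (chr1:20820313-20820482, minus strand) were not called. Mcm6 holds 3 E2F-type words and 2 CCAAT boxes, and Mcm3 holds 3 CCAAT boxes and none of the E2F-type words before its start. All these counts are for the printed stretches, while the windows run on past the start. There the Mcm3 window holds the E2F-type words TTTCCCGC (opposite strand, bases 20 to 27) and TTTGGCGC (bases 39 to 46). The Mcm10 window holds a further CCAAT box at bases 32 to 36 after the start. Each sequence reads 5′ to 3′ toward the gene.
Rrm2: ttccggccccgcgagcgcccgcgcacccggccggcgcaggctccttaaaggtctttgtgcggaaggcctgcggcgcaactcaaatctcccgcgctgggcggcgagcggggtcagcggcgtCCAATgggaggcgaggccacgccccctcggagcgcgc
Rrm1: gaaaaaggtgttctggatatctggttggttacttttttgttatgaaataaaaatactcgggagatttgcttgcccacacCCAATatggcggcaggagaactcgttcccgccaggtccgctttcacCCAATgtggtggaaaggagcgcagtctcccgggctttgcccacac
Mcm10: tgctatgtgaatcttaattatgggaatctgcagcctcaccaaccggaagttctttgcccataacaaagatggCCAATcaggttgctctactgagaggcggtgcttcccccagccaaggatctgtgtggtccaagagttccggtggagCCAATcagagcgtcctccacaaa
Mcm6: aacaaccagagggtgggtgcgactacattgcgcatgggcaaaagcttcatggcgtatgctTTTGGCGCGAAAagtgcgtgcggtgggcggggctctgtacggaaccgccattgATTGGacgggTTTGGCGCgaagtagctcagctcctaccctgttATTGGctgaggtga
Mcm3: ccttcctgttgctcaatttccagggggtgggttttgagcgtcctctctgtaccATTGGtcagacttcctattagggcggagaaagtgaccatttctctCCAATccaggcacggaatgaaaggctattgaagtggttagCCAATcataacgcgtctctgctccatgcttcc

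Among the 8 genes that fell and have a window, 4 held an E2F-type word (Rfc3, Pold1, E2f2 and Mcm7), and 10 of the 26 other members with a window did, or 50% and 38.5%. CCAAT boxes were present for 7 of those 8 genes, or 87.5%, and for 15 of the 26 others, or 57.7%. The TTTGAA word was present for 2 of the 8 and 3 of the 26. No test was made of these shares.

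The MCM ring is the motor of the replicative helicase, built from 1 copy of each of MCM2 to MCM7. Of its 6 genes, 1 fell (Mcm7) and 5 were not called, and the summed level was 378 and 402 CPM in BL/10 and 352 and 341 CPM in NOD.B10, a difference of -11.1%. Mcm7 (chromosome 5, 138164583 to 138172111, GRCm38) was at 68.8 and 61.7 CPM in BL/10 and at 45.3 and 50.7 CPM in NOD.B10. Both NOD.B10 libraries lay below both BL/10 libraries, with means of 65.3 ± 5.03 and 48.0 ± 3.80 CPM (SD, n = 2 each) and a log2 fold change of -0.44 (adjusted p = 0.0307, SE 0.127). That call did not hold without BL/10 replicate 1 (adjusted p = 0.113) or without NOD.B10 replicate 1 (adjusted p = 0.176).

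The other ring subunits went both ways. Mcm2 was at 58.5 and 60.4 CPM in BL/10 and at 49.0 and 40.3 CPM in NOD.B10, a log2 fold change of -0.41 (SE 0.134) whose adjusted p was 0.0538. Mcm6 was at 66.3 and 73.3 CPM against 55.2 and 54.2 CPM (log2 fold change -0.35, adjusted p = 0.0701). Both genes kept their groups apart without passing the test. Mcm2 was called lower without the filter on low counts (adjusted p = 0.0208) and without NOD.B10 replicate 1 (adjusted p = 0.0204), and Mcm6 without BL/10 replicate 1 (adjusted p = 0.0420). Mcm4, which had the highest mean CPM of the ring, was at 80.5 and 79.5 CPM against 69.0 and 73.1 CPM (-0.17, adjusted p = 0.395). Mcm5 was at 54.1 and 61.5 CPM against 65.5 and 61.1 CPM (0.13, adjusted p = 0.568). For Mcm3 the values were 49.6 and 65.6 CPM against 68.0 and 62.0 CPM (0.18, adjusted p = 0.505). The groups overlapped for Mcm5 and Mcm3. On a scale of RPKM (CPM per kilobase of the deposited gene length), which allows genes to be compared, the highest subunit stood 1.82 and 1.44 times above the lowest in the BL/10 libraries and 1.62 and 1.80 times in the NOD.B10 libraries. The order changed: Mcm7 was the highest of the ring in BL/10 at a mean of 27.2 RPKM, and Mcm3 the highest in NOD.B10 at 22.5 RPKM.

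Among the genes that recognise and license origins, and MCM10, which helps to start the loaded helicase, 1 of 5 fell. Their sum was 107 and 93.4 CPM in BL/10 and 92.1 and 90.2 CPM in NOD.B10, a difference of -9.19%. Mcm10 (chromosome 2, 4990724 to 5012791) was at 2.23 and 2.95 CPM (66 and 76 reads) in BL/10 and at 0.570 and 0.392 CPM (11 and 10 reads) in NOD.B10. All 4 values are low, and the groups do not overlap. The log2 fold change was -2.45 (SE 0.552, adjusted p = 0.00874), a 5.45-fold lower level, and the call did not hold without BL/10 replicate 2 (adjusted p = 0.0905).

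Cdt1, the loading factor with the highest level of these genes, was at 86.6 and 72.6 CPM in BL/10 and at 78.3 and 75.7 CPM in NOD.B10. The groups overlapped, and the log2 fold change was -0.05 (SE 0.124, adjusted p = 0.865). Cdc6, the partner of CDT1 in loading, was low, at 2.16 and 2.13 CPM against 1.14 and 0.900 CPM (-1.08, SE 0.497, adjusted p = 0.184). Orc6, a subunit of the origin recognition complex, was at 10.7 and 9.80 CPM against 6.01 and 7.28 CPM (-0.62, SE 0.240, adjusted p = 0.108). Both had NOD.B10 below BL/10 in every library pair and did not pass the test. Orc1, the largest subunit of the same complex, was at 5.64 and 5.93 CPM against 6.06 and 5.95 CPM (0.05, adjusted p = 0.932).

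CDC45 and GINS turn the loaded ring into a moving helicase. None of their 3 genes was called, and each was low, with a sum of 7.19 and 7.79 CPM in BL/10 and 6.06 and 6.50 CPM in NOD.B10. Cdc45 was at 4.66 and 4.5 CPM against 2.85 and 1.68 CPM (-1.03, SE 0.380, adjusted p = 0.0924), and it was called lower without NOD.B10 replicate 1 (adjusted p = 0.0174). Gins1 had the opposite order, at 1.52 and 2.02 CPM against 2.44 and 3.45 CPM (0.74, SE 0.435, adjusted p = 0.314). Gins2 overlapped between the strains, at 1.01 and 1.28 CPM against 0.777 and 1.37 CPM (-0.08, SE 0.575, adjusted p = 0.954). These genes had 15 to 138 reads per library, which limits the precision of each value.

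The sliding clamp and 1 subunit of its loader fell. Pcna (chromosome 2, 132249286 to 132253180) encodes the ring that tethers polymerases to DNA, and was at 84.2 and 93.8 CPM in BL/10 and at 49.7 and 53.3 CPM in NOD.B10. The log2 fold change was -0.79 (SE 0.121, adjusted p = 5.95e-04), a 1.73-fold lower level. Rfc3 (chromosome 5, 151642817 to 151651208), a small subunit of the loader, was at 15.6 and 15.5 CPM in BL/10 and at 7.77 and 8.03 CPM in NOD.B10. Replicates lay close together, with means of 15.5 ± 0.0458 and 7.90 ± 0.180 CPM (SD, n = 2 each), and the log2 fold change was -0.98 (SE 0.206, adjusted p = 0.00590). Both calls held under each of the 13 alternatives run.

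The other loader subunits did not pass the test. Rfc2 was at 56.3 and 55.9 CPM in BL/10 and at 67.0 and 68.6 CPM in NOD.B10 (0.27, SE 0.117, adjusted p = 0.151). Rfc4 was at 6.52 and 8.22 CPM against 10.2 and 10.8 CPM (0.52, SE 0.237, adjusted p = 0.182). In both genes the NOD.B10 libraries lay above the BL/10 libraries, opposite to Rfc3. Rfc5 overlapped, at 20.3 and 21.5 CPM against 23.6 and 20.6 CPM (0.08, adjusted p = 0.828). The sum of the 5 clamp and loader genes was 183 and 195 CPM in BL/10 and 158 and 161 CPM in NOD.B10, a difference of -15.4%.

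**Figure D2:**
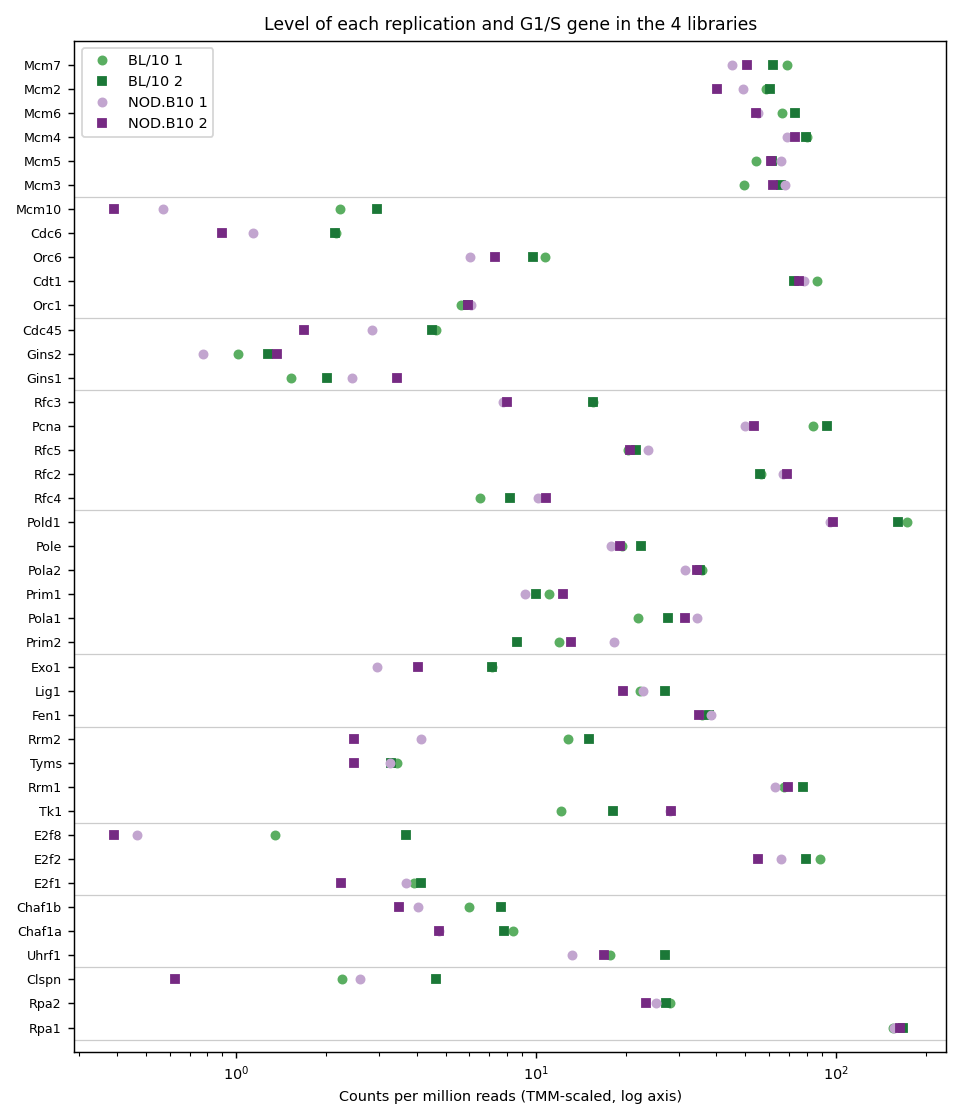
Level of each of the 41 genes in the 4 libraries, in TMM-scaled CPM on a log axis, in the order of the plot of fold changes. Pcna, Rfc3 and Pold1 show both NOD.B10 libraries well to the left of both BL/10 libraries, Tk1 shows them to the right, and the E2f8 points of BL/10 lie 2.73-fold apart.

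Among the polymerases and the primase, 1 of 6 genes fell. Pold1 (chromosome 7, 44532744 to 44548815), the catalytic subunit of polymerase delta, which copies the lagging strand, was at 173 and 162 CPM in BL/10 and at 96.2 and 97.8 CPM in NOD.B10. It had the highest CPM of the group and the groups were far apart, with means of 167 ± 7.55 and 97.0 ± 1.13 CPM (SD, n = 2 each). Its log2 ratio of NOD.B10 to BL/10 was -0.79 (SE 0.110, adjusted p = 2.65e-04), and the call held under each of the 13 alternatives.

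Pole, the catalytic subunit of the leading strand polymerase epsilon, was at 19.4 and 22.4 CPM in BL/10 and at 17.8 and 19.0 CPM in NOD.B10 (-0.18, SE 0.171, adjusted p = 0.563). The 4 genes of the polymerase alpha-primase complex, which makes the primers, were not called. Pola2 was at 36.0 and 35.2 CPM against 31.5 and 34.5 CPM (-0.11, adjusted p = 0.695). Prim1 was at 11.0 and 10.0 CPM against 9.17 and 12.3 CPM (0.03, adjusted p = 0.948), with overlap. The catalytic subunit Pola1 and the large primase subunit Prim2 had both NOD.B10 libraries above BL/10. Pola1 was at 21.9 and 27.6 CPM against 34.5 and 31.4 CPM (0.41, SE 0.163, adjusted p = 0.116), and was called higher without BL/10 replicate 2 (adjusted p = 0.0389). Prim2 was at 12.0 and 8.68 CPM against 18.3 and 13.1 CPM (0.60, SE 0.237, adjusted p = 0.119). It was called higher without the filter on low counts (adjusted p = 0.0452), without BL/10 replicate 1 (adjusted p = 0.0371) and without NOD.B10 replicate 2 (adjusted p = 0.0183). The sum of the 6 genes was 273 and 266 CPM in BL/10 and 207 and 208 CPM in NOD.B10, a difference of -22.9%, and Pold1 was the sole gene of the group that fell.

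Of 3 genes that process flaps, nicks and ends of the new strands, 1 fell. Exo1 (chromosome 1, 175880768 to 175911396), an exonuclease of mismatch repair and end resection, was at 7.16 and 7.13 CPM in BL/10 and at 2.95 and 4.03 CPM in NOD.B10. The log2 fold change was -1.03 (SE 0.301, adjusted p = 0.0348), and the call did not hold without BL/10 replicate 1 (adjusted p = 0.113), BL/10 replicate 2 (adjusted p = 0.0985) or NOD.B10 replicate 1 (adjusted p = 0.134). Lig1, the ligase that joins Okazaki fragments, was at 22.3 and 26.9 CPM against 22.7 and 19.5 CPM (-0.22, adjusted p = 0.484). Fen1, the flap nuclease that trims them, was at 35.9 and 37.9 CPM against 38.4 and 35.1 CPM (-0.01, adjusted p = 0.987). Both genes overlapped between the strains.

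The deoxynucleotide genes went different ways. Rrm2 (chromosome 12, 24708254 to 24714146), the small subunit of ribonucleotide reductase whose amount follows S phase, was at 12.8 and 15.1 CPM in BL/10 and at 4.14 and 2.47 CPM in NOD.B10. It fell 4.26-fold, with a log2 fold change of -2.09 (adjusted p = 2.17e-04, SE 0.286), the smallest adjusted p of the 41 genes. Rrm1, the large subunit of the same enzyme, was at 67.5 and 78.1 CPM against 62.9 and 69.3 CPM, with overlap (-0.14, SE 0.125, adjusted p = 0.550). Tk1 (chromosome 11, 117815519 to 117826087), the salvage thymidine kinase of dividing cells, was at 12.1 and 18.1 CPM in BL/10 and at 28.1 and 28.3 CPM in NOD.B10. It rose 1.88-fold (log2 fold change 0.91, SE 0.198, adjusted p = 0.00766). The Rrm2 and Tk1 calls held under each of the 13 alternatives. Tyms, which makes thymidylate from scratch, was low and close, at 3.44 and 3.29 CPM against 3.26 and 2.47 CPM (-0.24, SE 0.371, adjusted p = 0.753).

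Of the 3 E2F genes, 2 fell. E2f2 (chromosome 4, 136172274 to 136196057), an activating factor, was the most abundant of them at 88.7 and 79.8 CPM in BL/10 and at 65.8 and 55.2 CPM in NOD.B10. The log2 fold change was -0.48 (adjusted p = 0.0226, with SE 0.129), and the call did not hold without BL/10 replicate 1 (adjusted p = 0.0614) or NOD.B10 replicate 2 (adjusted p = 0.180). E2f8 (chromosome 7, 48866429 to 48882073), a repressor made later in S phase, was at 1.35 and 3.68 CPM (40 and 95 reads) in BL/10 and at 0.466 and 0.392 CPM (9 and 10 reads) in NOD.B10. The BL/10 libraries differed 2.73-fold from each other, and both lay above NOD.B10. Its log2 fold change was -2.56 (SE 0.641, adjusted p = 0.0155), and the call did not hold with limma-voom (adjusted p = 0.0774) or without BL/10 replicate 2 (adjusted p = 0.315). E2f1, the other activating factor, was at 3.92 and 4.15 CPM against 3.68 and 2.23 CPM (-0.46, SE 0.372, adjusted p = 0.497). Summed, the 3 genes stood at 93.9 and 87.6 CPM in BL/10 and at 69.9 and 57.8 CPM in NOD.B10, a difference of -29.6%.

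Chromatin assembly factor 1, which lays histones on new DNA, and UHRF1, which guides maintenance methylation to it, gave no call among 3 genes. Chaf1a was at 8.41 and 7.83 CPM in BL/10 and at 4.77 and 4.74 CPM in NOD.B10 (-0.77, SE 0.265, adjusted p = 0.0696). Chaf1b was at 5.98 and 7.63 CPM against 4.04 and 3.48 CPM (-0.86, SE 0.301, adjusted p = 0.0765). In both CAF-1 genes the NOD.B10 libraries lay below the BL/10 libraries, just short of the threshold. Uhrf1, at 17.7 and 27.0 CPM against 13.2 and 16.8 CPM, had the same order (-0.57, SE 0.223, adjusted p = 0.120). It was called lower without the filter on low counts (adjusted p = 0.0236), without BL/10 replicate 1 (adjusted p = 0.00671) and without NOD.B10 replicate 2 (adjusted p = 0.0210). The sum of the 3 genes was 32.1 and 42.4 CPM in BL/10 and 22 and 25.1 CPM in NOD.B10.

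Replication protein A, which coats single strands at the fork, and claspin, which carries the stalled fork signal to CHK1, gave no call among 3 genes. Rpa1, the large subunit, was at 155 and 168 CPM in BL/10 and at 157 and 164 CPM in NOD.B10, with overlap (-0.01, SE 0.109, adjusted p = 0.957). Rpa2, the middle subunit, was at 28.1 and 27.3 CPM against 25.2 and 23.4 CPM (-0.19, SE 0.154, adjusted p = 0.491). Clspn varied within each strain, at 2.26 and 4.65 CPM against 2.59 and 0.626 CPM (-1.12, SE 0.637, adjusted p = 0.317), and was called lower without NOD.B10 replicate 1 (adjusted p = 3.85e-04). The groups overlapped for Rpa1 and Clspn, and for Rpa2 both NOD.B10 libraries lay below both BL/10 libraries.

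**Figure D3:**
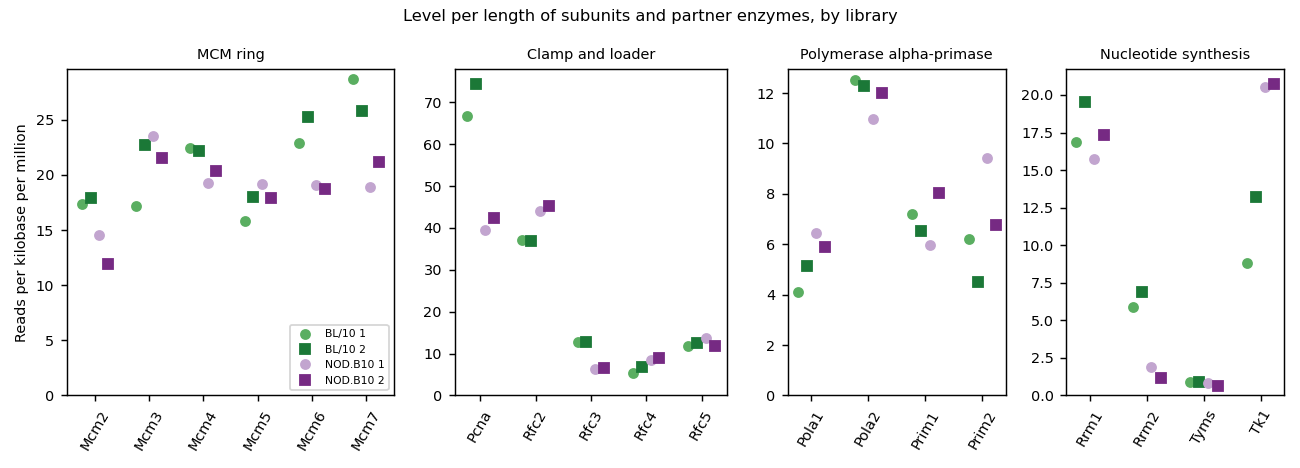
Level per length (RPKM, from TMM-scaled counts and the deposited gene length) of the subunits or enzymes of 4 complexes and pathways in the 4 libraries, each panel with its own axis from 0. The MCM subunits lie within a factor of 1.82 of each other in every library, while Rrm2 against Rrm1 and Rfc3 against Rfc2 are lower in both NOD.B10 libraries.

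Some genes of 1 complex or of linked steps changed unequally, as ratios of RPKM within a library show without any scaling between libraries. The pairs below join subunits of 1 complex (Rrm2 with Rrm1, Rfc3 with Rfc2, Prim1 with Pola1) or genes of linked steps (the others). These pairs were chosen after the values were seen, and no test was made of them. Rrm2 over Rrm1 was 0.349 and 0.354 in BL/10 and 0.121 and 0.0653 in NOD.B10. Rfc3 over Rfc2 was 0.345 and 0.347 in BL/10 and 0.145 and 0.146 in NOD.B10, and Pcna over Rfc2 was 1.80 and 2.02 against 0.894 and 0.937. In each of these ratios the BL/10 libraries were close and far from the NOD.B10 libraries. Pold1 over Pole was 18.5 and 15.1 in BL/10 and 11.3 and 10.7 in NOD.B10, and Mcm10 over Mcm2 was 0.0368 and 0.0471 against 0.0112 and 0.00938. Tk1 over Tyms had the reverse order, 9.76 and 15.2 in BL/10 and 24.0 and 32.0 in NOD.B10. Prim1 over Pola1 overlapped between the strains, at 1.76 and 1.27 against 0.928 and 1.37.

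The members that fell were found at low and at high levels. Among the 16 members with a mean under 10 CPM, 4 fell, none rose, and the median log2 fold change was -0.81, beside -0.08 for the 4623 tested genes of that band, of which 12.5% were called lower. Of the 12 members between 10 and 50 CPM, 1 fell and 1 rose (median -0.06), beside 7.20% lower and 6.52% higher of 4250 genes. Of the 13 members at 50 CPM or more, 4 fell and none rose (median -0.17), beside 5.78% lower of 4202 genes. Across the 41 genes, the log2 mean level and the log2 fold change had a Pearson correlation of 0.404 and a Spearman correlation of 0.337, given as a description, since genes of the same 4 libraries are not independent replicates. The mean RPKM of the 41 genes in the 2 strains correlated at 0.955 on the log2 scale, so the order of the genes by level was largely shared.

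**Figure D4:**
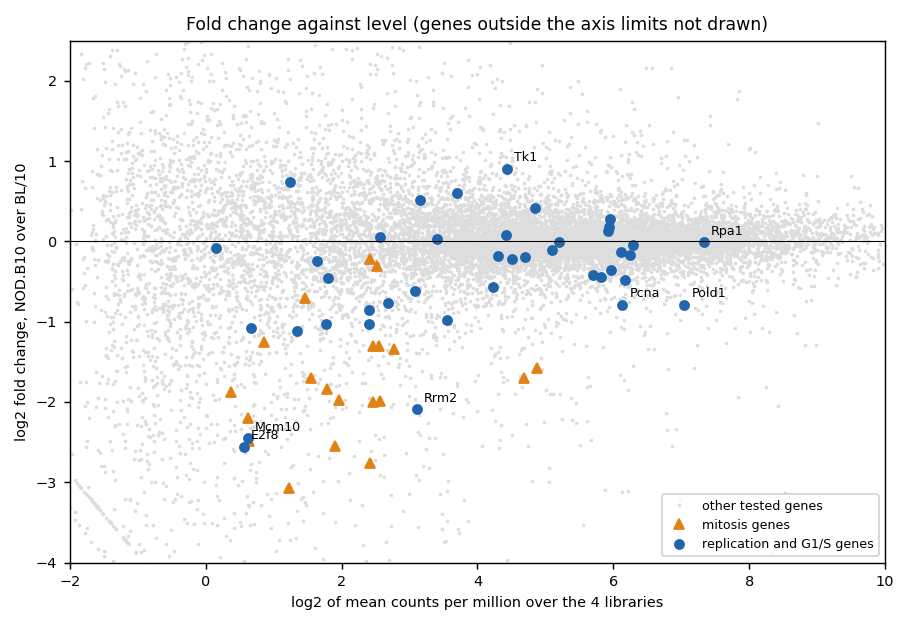
Log2 fold change (NOD.B10 over BL/10) against the log2 of the mean CPM of each tested gene, with the 41 genes in blue and the 20 mitosis genes in orange. Pcna and Pold1 both lie at -0.79, Rpa1 lies on the line at 0, and E2f8 and Mcm10 lie among the mitosis genes.

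Beside the members, 5 further lists of other replication genes and of related genes, mitosis among them, were read. Of 42 other replication genes (the remaining subunits of the same complexes and their regulators), 1 fell, none rose, and the median log2 fold change was -0.00. The gene that fell was Dbf4, which activates the CDC7 kinase that fires origins, at 15 and 15.4 CPM in BL/10 and at 4.66 and 4.93 CPM in NOD.B10 (-1.66, SE 0.225, adjusted p = 1.96e-04). Gmnn, which encodes the CDT1 inhibitor geminin and was singled out after its values were seen, was at 3.01 and 5.35 CPM in BL/10 and at 1.14 and 0.0783 CPM in NOD.B10. It was not called (-2.81, SE 0.905, adjusted p = 0.100), but 6 of the 13 alternatives called it lower, with adjusted p-values over all 13 from 2.75e-11 to 0.208.

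Of 25 other nucleotide synthesis genes, 2 fell and 1 rose, with a median of -0.05. Samhd1, which degrades deoxynucleotides, was at 908 and 836 CPM against 637 and 703 CPM (-0.38, SE 0.101, adjusted p = 0.0214), a call that did not hold without NOD.B10 replicate 1 (adjusted p = 0.206). Impdh1, of guanine nucleotide synthesis, was at 41.4 and 35.9 CPM against 28.4 and 23.0 CPM (-0.59, adjusted p = 0.0232), and Mthfd1, of folate metabolism, at 40.9 and 57.8 CPM against 67.1 and 77.1 CPM (0.55, adjusted p = 0.0459). The Impdh1 call did not hold without BL/10 replicate 1 (adjusted p = 0.0862) or NOD.B10 replicate 2 (adjusted p = 0.157). The Mthfd1 call did not hold under 6 alternatives, with adjusted p-values of 0.0509 to 0.171.

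Of 30 tested G1/S regulators (cyclins, kinases, inhibitors and partners of E2F), 7 fell and 1 rose, with a median of -0.16. Without BL/10 replicate 2, 4 of them were called lower. Ccna2, the S phase cyclin, was at 10.4 and 10.9 CPM in BL/10 and at 3.99 and 3.80 CPM in NOD.B10 (-1.45, SE 0.256, adjusted p = 0.00169). Cdkn1b, which encodes the inhibitor p27, was at 297 and 223 CPM against 175 and 175 CPM (-0.57, adjusted p = 0.0124). Mycl, a MYC family factor counted under its older symbol Mycl1, had 69 reads in BL/10 and 2 in NOD.B10, a 27.9-fold difference with a 95% exact interval for counting error of 7.44 to 235, and its call (adjusted p = 0.00767) did not hold without BL/10 replicate 2 (adjusted p = 0.0624). Cdk2, Cdk6, Ccne1 and Tfdp2 also fell, by 0.51, 0.79, 0.78 and 0.56 on the log2 scale, and the D cyclin Ccnd3 rose by 0.45. The genes that fell thus include an inhibitor as well as kinases and cyclins.

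Of 23 genes of replication stress and repair, 1 fell, none rose, and the median was -0.19. The gene was Wee1, the kinase that holds CDK1 back, at 14.8 and 12.5 CPM in BL/10 and at 5.13 and 3.84 CPM in NOD.B10 (-1.62, SE 0.252, adjusted p = 6.38e-04).

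Of 20 mitosis genes, which act after replication, 15 fell and none rose, with a median log2 fold change of -1.77 and a range from -3.07 to -0.22. Their summed level was 169 and 209 CPM in BL/10 and 71.7 and 57.1 CPM in NOD.B10, a difference of -65.9%, beside -14.0% for the 41 replication genes. Top2a, the topoisomerase of chromosome separation, was at 33.5 and 45.3 CPM against 12.6 and 11.7 CPM (-1.70, SE 0.183, adjusted p = 2.77e-05). Bub1b, of the spindle checkpoint, was at 10.4 and 8.22 CPM against 1.81 and 0.979 CPM (-2.76, adjusted p = 1.49e-04), and Nusap1, a spindle protein, at 8.31 and 9.42 CPM against 2.23 and 2.19 CPM (-2.0, adjusted p = 4.41e-04). Without BL/10 replicate 2 the count of mitosis genes called lower was 9. The TTTGAA word was present before 12 of the 17 mitosis genes with a window, or 70.6%, and an E2F-type word before 1 of 17, beside 14.7% and 41.2% of the replication genes. The difference between the lists was not tested.

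**Figure D5:**
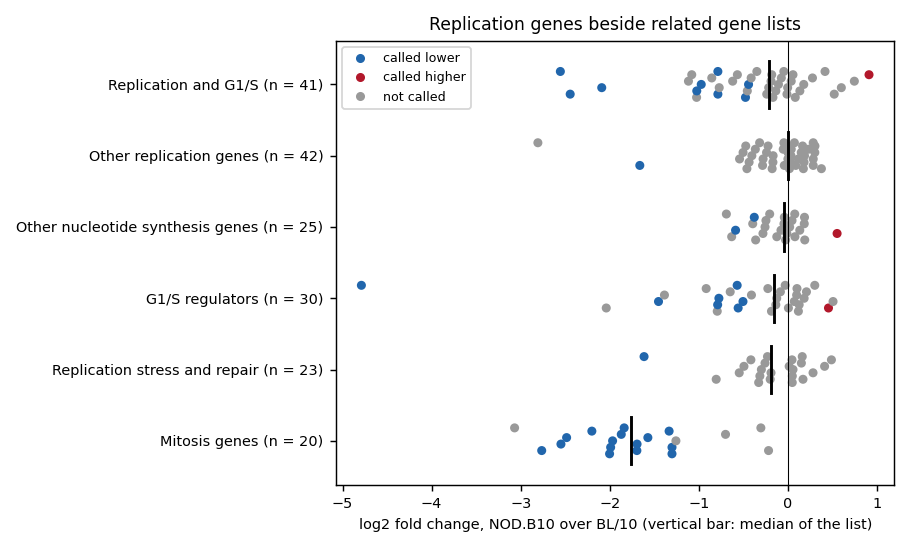
Log2 fold change (NOD.B10 over BL/10) of each tested gene of the 41 replication and G1/S genes and of 5 related lists, with a vertical bar at each list's median and colours for the call. The medians lie at -0.22 for the replication and G1/S genes, between -0.19 and -0.00 for 4 of the other lists, and at -1.77 for mitosis.

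Some counts could hold reads of neighbours or copies, since neither the strand option used for counting nor the handling of multiply aligned reads is given in the sources used here. By GENCODE M21, exons of another gene on the opposite strand covered 78.8% of the exon bases of Fen1 (Gm10143), 67.3% of Gins2 (Gse1), 52.5% of Chaf1a (Ubxn6), 15.1% of Rfc2 (Lat2), 12.7% of Rfc4 (Eif4a2), 11.2% of E2f8 (Gm2788), 10.8% of Orc1 (Gm12743) and 10.7% of Rfc5 (Wsb2). For every other member, no single gene on the opposite strand covered more than 7.25%. These are shares of all M21 exon bases of a gene, which can far exceed the deposited gene length. Gins2 has 4097 such bases against a deposited length of 1038, and Chaf1a 8854 against 3308. The shares are therefore not shares of the bases that were counted. Words of 50 bases shared with another gene made up 31.8% of those of Pcna (Pcna-ps2), 19.9% of Mcm7 (Gm5487), 17.9% of Uhrf1 (Gm15953 and Gm5648), 9.80% of Tyms, 5.85% of Rrm2, 5.65% of Rfc5, 4.75% of Tk1 (Gm6091) and 4.37% of Cdc6 (Gm9430), and at most 1.75% for each of the other members. These shares describe sequence, and how many reads of these genes came from a neighbour or copy was not tested.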

How the data were processed

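Per the submitters' processing notes, HISAT2 2.1.0, SAMtools 1.3, Subread 1.6.5 and featureCounts were used with mouse build mm10, and the authors deposited raw read counts and the gene length per symbol for 4 libraries. From these counts, genes passing edgeR's filterByExpr (13075 of 23418) were tested between the 2 strains with edgeR 4.0.16 (TMM factors, trended robust dispersion, quasi-likelihood F-test, R 4.3.3). Fold changes are unshrunk, and the standard error is the log2 fold change over the square root of F. CPM use TMM-scaled library sizes and RPKM the deposited length, with no correction for multiple alignments. Alternatives used other scalings (RLE, upper-quartile, library sizes without Rn45s), DESeq2 1.42.0, limma-voom (limma 3.58.1), no or a stricter filter, no robust dispersion, a replicate block, and each library left out in turn.

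The 41 members and all lists were chosen with earlier results of these data known. Every member is accounted for, with values per library for the member of smallest p and of highest CPM in each role and for each member not called lower. In other lists, up to 3 called genes of smallest p are named, without values for marker lists, and others were singled out after their values were seen. The replicate numbers in the labels name no shared animal, litter or day, so the main fit did not pair the libraries. All counts come from 1 table, and its columns were matched to libraries by name.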

Additional observations from a re-analysis of the deposited data

How the results depend on the processing

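With 2 libraries a strain, 4 of the 9 members called lower (Pcna, Rfc3, Pold1 and Rrm2) and Tk1, called higher, kept their calls under all 13 alternatives. The count of members called lower was 9 under 6 of the alternatives, 8 with limma-voom, 8 with a minimum count of 50 (E2f8 was then not tested), 11 without a filter, and 6 to 10 with 1 library left out. Members called higher numbered 2 without a filter and 1 to 2 with 1 library left out. Their median log2 fold change ranged from -0.34 (without NOD.B10 replicate 1) to -0.21. Other replication genes called lower numbered 2 with DESeq2, limma-voom, no filter or no robust dispersion, and 1 to 2 with a library left out, when 0 to 1 were called higher. Other nucleotide synthesis genes called lower numbered 4 without a filter; those called higher numbered 0 with RLE factors, upper-quartile factors, a minimum count of 50 or library sizes without Rn45s, and 0 to 1 with a library left out. With a library left out, G1/S regulators gave 4 to 7 lower and 1 to 2 higher, and mitosis genes 9 to 16 lower. Among marker lists, NK cell genes called lower numbered 3 at a minimum count of 50. Plasma cell genes called lower numbered 4 with DESeq2 or no robust dispersion, 1 at a minimum count of 50, and 0 to 3 with a library left out (0 without BL/10 replicate 1), when 0 to 1 were called higher. Germinal centre genes called higher numbered 1 without a filter and 0 to 2 with a library left out. B cell genes called higher numbered 2 with DESeq2, limma-voom, no robust dispersion or the replicate block, 3 without a filter, and 2 to 4 with a library left out. The sign of 7 members that were not called turned with a library left out, when their log2 fold changes ranged from -0.0142 to 0.385 (Mcm3), -0.176 to 0.0845 (Cdt1), -0.558 to 0.250 (Gins2), -0.0313 to 0.177 (Rfc5), -0.199 to 0.219 (Prim1), -0.0814 to 0.0594 (Fen1) and -0.0720 to 0.0416 (Rpa1). Fen1 also turned with upper-quartile factors (0.00103). A lone library was assumed to vary like the other strain. The cause of these changes was not tested beyond the number of genes or libraries each alternative holds.

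The replicate block left 9 members lower and 1 higher and changed no call among the 41, while 1802 genes were called against 1986 without it. The correlation of the deviations of same-numbered libraries over 13075 genes was -0.0165. With 2 libraries a strain, this value cannot show whether same-numbered libraries shared a day or a batch.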
